A study of Mus musculus with 2 samples.

Results

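The variable (V) genes of the mouse immunoglobulin loci were examined as a group: every gene in the count tables whose symbol starts with Ighv (heavy chain), Igkv (kappa light chain) or Iglv (lambda light chain). This gave 346 of the 34144 genes in the tables, namely 183 Ighv, 160 Igkv and 3 Iglv genes. Of these, 24 had at least 1 molecule in the adult library and 175 in the old library, and 166 were at 0 in both. The members were taken by name and not by a cut on any measured value, although earlier results of these data were known.

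The study profiled marrow stromal cells of adult and old wild-type mice of the C57BL6 strain by single-cell RNA sequencing. Cells came from the marrow of long bones, haematopoietic cells were depleted magnetically, and live cells were sorted by scatter and DAPI exclusion before encapsulation with a 10x Genomics 3′ kit. Each age was represented by 1 library, and neither an agent nor an altered gene is given for either. The sources used here do not state ages in months, how many mice of which sex were used, or any pooling. With no replicate, no difference between the libraries could be tested, and the intervals below (95%, exact Poisson or exact binomial) cover counting error only.

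A B cell builds its antigen receptor by joining 1 of many V genes to shorter D and J segments at the heavy chain locus, and then a V gene to a J segment at the kappa or, less often in mice, the lambda locus. A mature B cell and its descendants normally keep 1 productive heavy and 1 productive light chain, so the V genes in a cell mark the clone it belongs to. Plasma cells, the antibody-secreting end stage of the lineage, settle in the marrow near CXCL12-abundant reticular (CAR) stromal cells and carry very large amounts of immunoglobulin RNA, which can also be picked up as free RNA in droplets that hold other cells.

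The adult library held 25635 barcodes with 208637421 unique molecular identifiers (UMIs, each counting 1 captured RNA molecule), and the old library 22298 barcodes with 229917243 UMIs. After filtering, 22403 and 18975 barcodes were kept, with medians of 7139 and 7736 UMIs. The same barcode sequence occurred in both libraries 152 times, and those barcodes held 0 V UMIs in the adult library. Cell classes were rebuilt by clustering without immunoglobulin genes and were named by marker genes, so they are written with "-like". No doublets were removed. In whole-library totals, more cells of a type and more RNA per cell cannot be told apart.

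The germline sequences of the V genes that the results below turn on were read from the GENCODE M21 transcripts (GRCm38) by gene identifier. All 346 members had an entry, 216 of them as functional V genes and 130 as pseudogenes. The members lie on chromosome 12 (heavy), chromosome 6 (kappa) and chromosome 16 (lambda). The last 60 coding bases are shown because they hold the codon for the conserved cysteine, in capitals, that opens the antigen-contacting CDR3 loop, the point at which the germline V gene ends and the rearranged junction begins. The 4 heavy V genes of the most frequent heavy and kappa combinations were these.
Ighv1-54: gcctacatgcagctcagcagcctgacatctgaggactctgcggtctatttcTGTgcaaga
Ighv14-1: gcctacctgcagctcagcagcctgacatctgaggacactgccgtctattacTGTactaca
Ighv1-15: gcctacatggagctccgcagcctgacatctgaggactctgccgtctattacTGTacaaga
Ighv1-55: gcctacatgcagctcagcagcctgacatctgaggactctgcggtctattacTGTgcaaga
The kappa V genes that were found with them, in the same order, were these.
Igkv12-44: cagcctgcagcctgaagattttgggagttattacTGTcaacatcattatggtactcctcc
Igkv4-59: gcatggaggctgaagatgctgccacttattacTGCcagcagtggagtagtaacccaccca
Igkv1-110: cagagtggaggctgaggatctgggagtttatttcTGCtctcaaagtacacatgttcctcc
Igkv6-20: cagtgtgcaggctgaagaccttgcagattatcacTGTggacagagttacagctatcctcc
The most abundant lambda V gene was this.
Iglv1: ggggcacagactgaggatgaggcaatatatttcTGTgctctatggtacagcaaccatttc
The 4 heavy V genes end 9 bases after the start of that codon, whereas the kappa and lambda genes extend further into the loop.

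V gene RNA was almost absent from the adult library and abundant in the old library. The adult library held 42 V UMIs, or 0.201 CPM (0.145 to 0.272), where CPM are UMIs per 1000000 UMIs of the library, in 27 barcodes. The old library held 447228, or 1945 CPM, in 11115 barcodes. The ratio was 9663 (7148 to 13407). Heavy V genes gave 11 adult and 140872 old UMIs, kappa V genes 27 and 199896, and lambda V genes 4 and 106460. Lambda V genes, with 3 members, thus made up 23.8% of the V UMIs of the old library.

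A few V genes held most of the old library's V UMIs. The kappa gene Igkv12-44 (ENSMUSG00000096422) had 0 adult and 167898 old UMIs, at least 50786-fold higher in CPM when 3 UMIs are taken as the floor of the adult library. The heavy gene Ighv1-54 (ENSMUSG00000094787) had 0 and 119639, at least 36189-fold higher on the same floor. The lambda gene Iglv1 (ENSMUSG00000076934) had 3 and 92915, a ratio of 28105 (9617 to 136287). These 3 genes held 85.1% of the V UMIs of the old library, and the top 10 held 93.5%.

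The other members had far fewer. Iglv3 had 13374 UMIs in the old library, the heavy gene Ighv14-1 had 6982, and the kappa genes Igkv6-20, Igkv4-59 and Igkv1-110 had 4757, 3905 and 3449. Among heavy V genes, Ighv1-15 followed with 2641, Ighv1-36 with 1874, Ighv1-55 with 1368, Ighv1-7 with 970, Ighv1-81 with 903, Ighv6-6 with 759, Ighv1-12 with 625 and Ighv5-16 with 548. Among kappa V genes, Igkv15-103 followed with 2714, Igkv18-36 with 1925, Igkv1-117 with 1924, Igkv5-48 with 1590, Igkv10-96 with 1448 and Igkv4-72 with 943. The old library held at least 10 UMIs of 106 V genes and at least 100 UMIs of 64. By family, the large Ighv1 family (92 members) held 92.9% of the heavy V UMIs, and the Igkv12 family (12 members) 84.3% of the kappa V UMIs. Members annotated as pseudogenes held 0.0919% of the old library's V UMIs. These are UMI totals per gene, and germline coding lengths ranged only from 306 to 394 bases among the 170 members with an open reading frame.

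**Figure D1:**
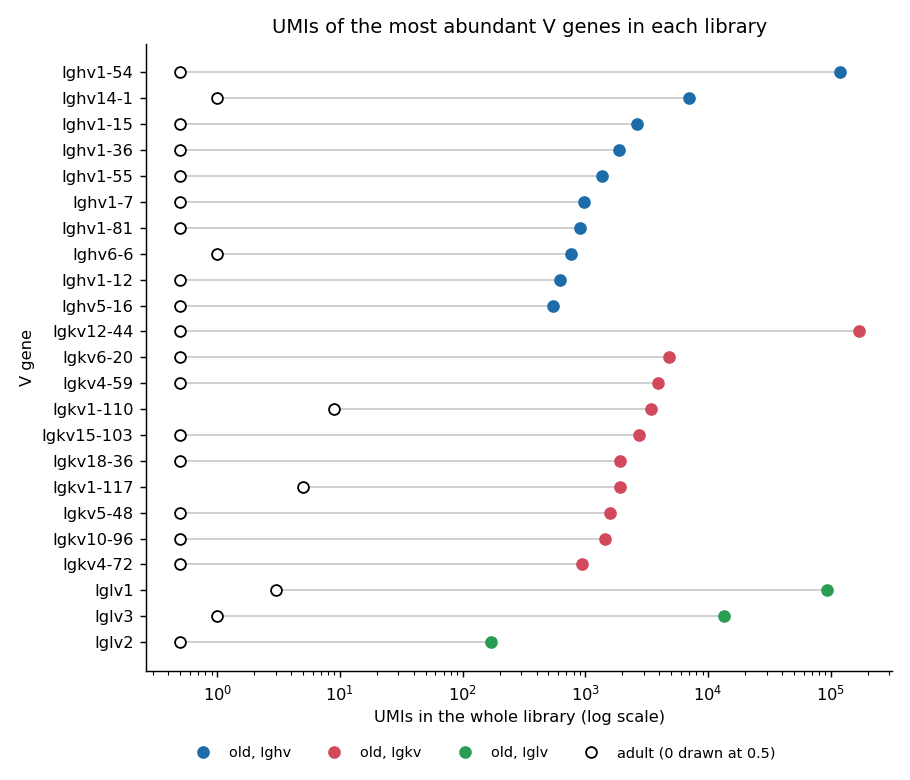
UMIs in the whole adult library (open circles) and old library (filled circles, coloured by locus) for the 10 heavy, 10 kappa and 3 lambda V genes with the most UMIs in the old library, on a log axis with 0 drawn at 0.5. Igkv12-44, Ighv1-54 and Iglv1 stand at 167898, 119639 and 92915 UMIs, and no gene shown has more than 9 in the adult library.

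A gene was counted as past the fold threshold when it differed at least 2-fold in CPM with at least 50 UMIs in the higher library. Of the 346 members, 77 reached 50 UMIs, and all 77 were higher in the old library (34 Ighv, 40 Igkv, 3 Iglv), where 9.62% of the 19849 genes that could be compared were at least 2-fold higher in the old library. Every one of the 77 reached the count minimum through the old library, so this count follows from the minimum and says nothing further about the members. Their median difference was 6.58 on the log2 scale with adult values set to at least 3 UMIs, beside -0.10 over all genes compared. Of the 77, 74 had under 3 adult UMIs, so this median too is largely set by the minimum and the floor.

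The 42 V UMIs of the adult library were spread over 24 genes. Igkv1-110 had 9 UMIs in 7 barcodes, Igkv1-117 had 5, Iglv1 had 3, and Igkv14-126, Igkv3-2, Igkv1-135 and Ighv5-4 had 2 each. Igkv1-110 was therefore 348-fold higher in the old library (183 to 761), and Igkv1-117 349-fold (149 to 1077). The adult order differed from the old one at its top, since Igkv12-44 and Ighv1-54 had 0 adult UMIs, which allows up to 3 UMIs each. By cell class, 19 of the 42 UMIs lay in 7 barcodes of B lineage cells, 5 in neutrophil-like, 4 in CAR-like, 4 in osteolineage-like and 2 in endothelial-like barcodes.

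The genes that build, express and diversify antibodies were read alongside the V genes with the same fold threshold (9.62% of all genes higher and 13.4% lower in the old library). Of 12 constant region genes, 11 had enough UMIs to be compared, and all 11 were higher in the old library. Ighg1, Ighg2b, Ighg2c, Ighg3, Igha, Ighe, Iglc1 and Iglc3 reached the count minimum through the old library alone, with 0 to 39 adult UMIs. These genes could therefore not have been called lower. Ighm, Igkc and Iglc2 reached the minimum in both libraries. Ighg2b, the constant region of IgG2b, had 1 adult and 5558776 old UMIs, and Igkc, the only kappa constant region, had 347 and 14540733. Ighm, the constant region of the first isotype a B cell makes, had 368 and 37780. Of 16 plasma cell genes, 13 were at least 2-fold higher and 1, Fkbp11, was lower. Among the 13, Jchain, Tnfrsf17 and Mzb1 had only 26, 6 and 0 adult UMIs, so the same limit holds for them. Jchain, which joins IgA and IgM into polymers, had 26 and 125126 UMIs. Irf4 and Prdm1, transcription factors of plasma cell differentiation, had 122 and 18596, and 752 and 8005.

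Most genes compared in the list of V(D)J recombination and precursor genes were not higher in the old library. Of 10 compared, 4 were past the threshold with lower old values and 1, Vpreb3, with a higher one. Xrcc6, Prkdc, Dclre1c, Lig4 and Nhej1, none past the threshold, also act in general DNA repair, so the count does not describe early B cells alone. Lef1, 1 of the 4 lower genes, had 1733 adult and 499 old UMIs over all cells. Vpreb3 was also found in 51.8% of the plasma cell-like barcodes described below. Dntt, which adds untemplated bases at the V junctions, had 65 adult and 10 old UMIs. The surrogate light chain genes Vpreb1 and Igll1 had 345 and 164, and 96 and 32. Dntt and Igll1 reached the count minimum through the adult library alone, so they could not have been called higher. Rag1 and Rag2, the recombinase that cuts the V genes, had 36 and 17, and 20 and 11, too few to be compared. Of 6 genes of diversification and switching, Ung and Msh6, which act in base excision and mismatch repair, were at least 2-fold higher. Of the 9 B cell genes compared, 5 were higher and 0 were lower.

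Nearly all V RNA lay in plasma cell-like barcodes. These formed 2 clusters with 1044 and 222 barcodes, all 1266 of them from the old library. For this count, too, depletion cannot be told apart from age. The label held against its markers: Jchain was found in 99.8% of these barcodes, Xbp1 in 99.7%, Slamf7 in 96.1% and Sdc1 in 90.5%, while Pax5, Rag1, Igll1 and Dntt were at 0. Mzb1, a chaperone of antibody assembly that is usually abundant in plasma cells, was found in only 8.14%. The plasma cell-like barcodes held 425943 V UMIs, 95.2% of the old library's, at a mean of 336 per barcode (median 304, highest 1589). The mean was 382 in the larger cluster and 124 in the smaller, whose median depths were 37098 and 8643 UMIs. The smaller cluster had the higher V level relative to all other RNA, 22815 against 17382 CPM over non-immunoglobulin UMIs.

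V UMIs were a small part of the immunoglobulin UMIs at the heavy and kappa loci but not at the lambda locus. A 3′ library reads messages from their poly(A) end, whereas the V exon lies near the 5′ end, upstream of the constant exons. In plasma cell-like barcodes, heavy V UMIs amounted to 2.42% of heavy constant UMIs, and kappa V UMIs to 1.36% of Igkc UMIs. Lambda V UMIs amounted to 118% of lambda constant UMIs, and Iglv1 UMIs to 564% of those of Iglc1, a constant gene that Iglv1 can join. These lambda ratios rest in part on 2 barcodes that held more lambda constant than Igkc UMIs, and without them they were 184% and 4074%.

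Single plasma cell-like barcodes were dominated by 1 heavy V gene. Among the 1220 barcodes with at least 10 heavy V UMIs, the top gene held a median of 99.8% of them, and it held at least 90% in 1110 barcodes (91.0%). In 10 UMIs drawn from such a barcode, a median of 1.02 different heavy V genes would be found (range 1 to 4.20). Kappa V genes alone were nearly as uniform, with a median top share of 98.0% and 1.20 genes in 10 UMIs over 1239 barcodes. With kappa and lambda V genes pooled, the top gene held a median of only 68.8%, and 2.43 genes were found in 10 UMIs. The last values include lambda genes, and they cover the 1257 barcodes with at least 10 UMIs of the pooled light V genes.

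Over all plasma cell-like barcodes the pool was narrow as well. Ighv1-54 held 85.1% of the heavy V UMIs and Igkv12-44 84.0% of the kappa V UMIs. The effective number of genes (the exponential of the Shannon entropy of their UMI shares) was 2.27 for heavy and 2.52 for kappa V genes, although 49 and 51 genes had at least 10 UMIs. In the 298 barcodes with another heavy V gene it was 13.7 and 19.2.

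A heavy V gene was called in a barcode when its top gene had at least 10 UMIs and at least 50% of the heavy V UMIs, and light V genes were called likewise over kappa and lambda together. Of 1266 plasma cell-like barcodes, 1211 had a heavy call over 35 genes, and Ighv1-54 was called in 913 (75.4%). Both chains were called in 1056 barcodes with 56 different pairs. Ighv1-54 with Igkv12-44 was the most frequent, in 733 barcodes (69.4%, 66.5 to 72.2). The next pairs by this rule, Ighv1-54 with Iglv1 in 79 barcodes and Ighv14-1 with Iglv1 in 66, rest on Iglv1 UMIs in barcodes that also carried kappa RNA.

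The calls were therefore repeated with kappa V genes alone, an alternative chosen after the values were seen. Both chains were then called in 1184 barcodes with 51 pairs, and Ighv1-54 with Igkv12-44 made up 890 of them (75.2%, 72.6 to 77.6). In those 890 barcodes, Ighv1-54 had 10 to 597 UMIs with a median of 111, and Igkv12-44 had 12 to 725 with a median of 161. The 890 barcodes made up 98.1% of the 907 Ighv1-54 barcodes with a kappa call. Among barcodes with a heavy call, Ighv1-54 made up 73.8% of 1023 in the larger plasma cell-like cluster and 84.0% of 188 in the smaller, where 34 of 222 barcodes had no heavy call.

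Beyond the top pair, the remaining 294 barcodes held 50 pairs of 34 heavy and 28 kappa V genes, an effective number of 16.2 pairs. Of these pairs, 11 were found in at least 5 barcodes and together covered 235, and 26 were found in 1 barcode each. Ighv14-1 with Igkv4-59 came next with 83 barcodes, then Ighv1-15 with Igkv1-110 in 36, Ighv1-55 with Igkv6-20 in 35, Ighv1-7 with Igkv15-103 in 21, Ighv1-81 with Igkv5-48 in 16 and Ighv1-54 with Igkv1-117 in 16. Each of Ighv1-36 with Igkv12-44, Ighv5-17 with Igkv17-127 and Ighv8-12 with Igkv17-121 was found in 6 barcodes, and Ighv1-9 with Igkv4-61 and Ighv6-6 with Igkv10-96 in 5 each.

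Heavy V genes were tied to 1 kappa V gene also outside the top pair. Of 12 heavy V genes other than Ighv1-54 with a kappa call in at least 5 barcodes, 11 had more than 50% of them on a single kappa gene. For 1 of the 11, Ighv1-36, that gene was Igkv12-44 of the top pair, in all 6 barcodes. Those barcodes had a median of 93 Ighv1-36 UMIs beside 175.5 UMIs of all heavy V genes, so they may not lie outside the top pair. All 35 paired Ighv1-55 barcodes carried Igkv6-20, all 21 of Ighv1-7 carried Igkv15-103, and all 16 of Ighv1-81 carried Igkv5-48. Ighv14-1 carried Igkv4-59 in 83 of 86 barcodes and Ighv1-15 carried Igkv1-110 in 36 of 42. Ighv1-53 was the exception, with 4 kappa genes over 5 barcodes. V genes alone do not identify a clone, because the junctions are not read here.

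**Figure D2:**
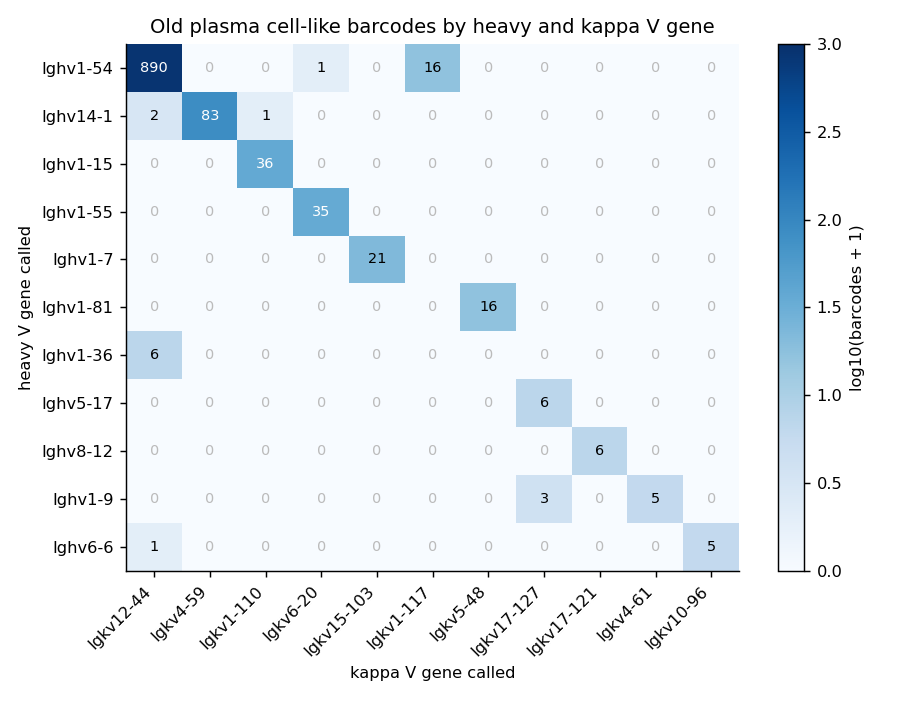
Number of old plasma cell-like barcodes with each heavy V call (rows) and kappa V call (columns), for genes of the pairs found in at least 5 barcodes; colour gives log10(barcodes + 1). Most counts sit in 1 cell of each row, from 890 for Ighv1-54 with Igkv12-44 to 5 for Ighv6-6 with Igkv10-96, and Ighv1-54 has a further 16 with Igkv1-117.

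The pairs differed in their level of V RNA and in their isotype. Ighv14-1 with Igkv4-59 had a median of 61 heavy and 32 kappa UMIs of its own genes, below the medians of 111 and 161 in the top pair, at similar depths of 37330 and 36145 UMIs. Ighv1-55 with Igkv6-20 had 27 and 80 at 37328 UMIs. The most abundant heavy constant gene was Ighg2b in 885 of 890 barcodes of the top pair and in all 83 of Ighv14-1 with Igkv4-59. It was Ighg2c, the constant region of IgG2c, in all 35 barcodes of Ighv1-55 with Igkv6-20 and in all 6 of Ighv5-17 with Igkv17-127. The 59 barcodes of pairs seen in fewer than 5 barcodes were the most mixed, with 33 of Ighg2b, 14 of Ighg2c, 6 of Ighm and 4 of Ighg1. Heavy constant RNA was found in 22235 of the 22298 barcodes of the old library, and its part in these isotype calls was not tested.

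Some barcodes carried a further V gene of the same locus. At least 10 UMIs of 2 or more heavy V genes were found in 6.32% of plasma cell-like barcodes, and of 2 or more kappa V genes in 14.1%. The median depth was 50669 UMIs in the heavy case against 34080 in barcodes with 1 such gene, and 40924 against 33705 in the kappa case. The most frequent kappa combinations were Igkv12-44 with Igkv18-36 in 54 barcodes, Igkv4-59 with Igkv4-72 in 29, Igkv1-110 with Igkv1-117 in 22 and Igkv12-44 with Igkv4-59 in 15. The most frequent heavy combinations were Ighv1-36 with Ighv1-54 in 19 and Ighv1-54 with Ighv14-1 in 15.

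These combinations differed in how alike their germline genes are. Igkv1-110 and Igkv1-117 had 97.2% identical coding bases and shared an unbroken run of 142, and Igkv4-59 and Igkv4-72 had 95.2% and a run of 71. In contrast, Igkv12-44 and Igkv18-36 had 64.4% and a longest run of 12, Igkv12-44 and Igkv4-59 had 61.9%, Ighv1-36 and Ighv1-54 had 82.6%, and Ighv1-54 and Ighv14-1 had 77.0%. The last 120 coding bases of the first combination are shown with the 4 bases that differ in capitals, as the case in which reads of 1 gene are hardest to tell from the other.
Igkv1-110: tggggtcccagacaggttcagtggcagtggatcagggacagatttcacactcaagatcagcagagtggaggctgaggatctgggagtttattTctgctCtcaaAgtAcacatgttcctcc
Igkv1-117: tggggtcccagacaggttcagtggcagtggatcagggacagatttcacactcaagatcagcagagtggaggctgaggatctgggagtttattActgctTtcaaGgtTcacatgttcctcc
How reads shared by such genes were assigned is not given in the sources used here, so the split of UMIs between Igkv1-110 and Igkv1-117, and between Igkv4-59 and Igkv4-72, is uncertain.

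Within the top pair, Igkv18-36 was the kappa V gene with the next most UMIs (1773, 1.09% of kappa V UMIs, in 302 of 890 barcodes), and Ighv1-36 the heavy one (933, 0.807%, in 74). Igkv18-36 reached 10 UMIs in 56 barcodes of the top pair. At a finer clustering of the same cells, still without immunoglobulin genes, the top pair was split over 3 clusters. Igkv18-36 reached 10 UMIs in 50 of 366 barcodes in 1 cluster, in 6 of 372 in another and in 0 of 152 in the shallowest. The median depths of the former 2 were close, 36891 and 40410 UMIs.

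Lambda RNA was present in almost every plasma cell-like barcode, whatever its pair. Iglv1 had at least 1 UMI in 98.6% of the 1266 barcodes (97.8 to 99.2), from 0 to 1240 with a median of 45. Only 2 barcodes had more lambda constant than Igkc UMIs. In the other 1264, Iglv1 reached 10 UMIs in 1090 (86.2%), with a median of 45, while Iglc1 had a median of 0 and Iglc2 of 21 against 10686 for Igkc. CAR-like barcodes of the same library had a mean of 0.136 Iglv1 UMIs and a highest value of 8, and plasma cell-like barcodes a mean of 69.9. These are raw UMIs at unlike depths, with medians of 7258 UMIs in CAR-like and 34161.5 in plasma cell-like barcodes. Over all plasma cell-like barcodes, 1092 (86.3%) had at least 10 Iglv1 UMIs, more than any CAR-like barcode.

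The Iglv1 level differed between pairs. Its median was 48 in the top pair (0 to 1240), 87 in Ighv14-1 with Igkv4-59 (2 to 493), 71 in Ighv1-55 with Igkv6-20 (2 to 504) and 23.5 in Ighv1-15 with Igkv1-110 (0 to 125). In the 6 barcodes of Ighv5-17 with Igkv17-127 it was 1.5, with a highest value of 4, so that this pair lay below the other frequent pairs. The same 6 barcodes had a median of 11 Iglc1 UMIs. Iglv1 had more UMIs than all kappa V genes together in 61 of 83 barcodes of Ighv14-1 with Igkv4-59, against 91 of 890 in the top pair. Within the top pair, its median was 75.5 in the cluster with Igkv18-36, 46 in the cluster of similar depth and 18 in the shallowest.

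The other lambda V genes were lower. Iglv3 had a median of 8 UMIs per plasma cell-like barcode, and at least 1 UMI in 95.4% of them. Iglv2 had 171 UMIs in the whole old library and a median of 0. Iglv1 and Iglv2 are close relatives, with 96.3% identical coding bases and a shared run of 104. Their last 120 coding bases are shown with the 4 bases that differ in this stretch in capitals (13 differ over the whole coding sequence), because so few bases separate a gene with 92915 UMIs from one with 171.
Iglv1: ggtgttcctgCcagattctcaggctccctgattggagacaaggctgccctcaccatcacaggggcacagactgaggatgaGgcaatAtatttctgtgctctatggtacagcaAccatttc
Iglv2: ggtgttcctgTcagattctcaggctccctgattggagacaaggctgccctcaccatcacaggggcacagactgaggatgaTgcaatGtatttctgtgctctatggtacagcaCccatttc

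**Figure D3:**
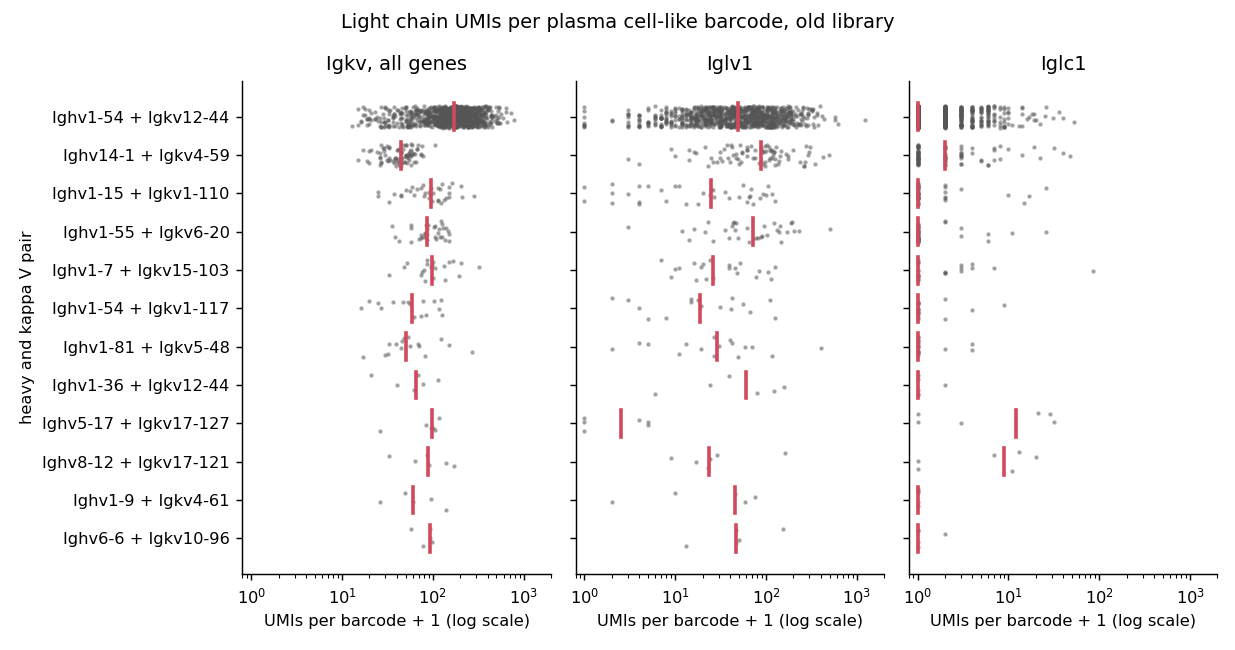
UMIs per barcode plus 1, on log axes, of all kappa V genes, of Iglv1 and of Iglc1 in old plasma cell-like barcodes of the 12 most frequent heavy and kappa pairs; grey points are barcodes and red bars are medians. Iglv1 medians lie between 17.5 and 87 in every pair but Ighv5-17 with Igkv17-127 (1.5), while Iglc1 medians are 0 or 1 in all but 2 pairs.

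Barcodes with Ighv1-54 also differed from the others in genes outside the immunoglobulin loci. Among 2925 genes that reached 50 UMIs and 50 CPM in the higher group, 8 (0.274%) were at least 4-fold higher in the 913 Ighv1-54 barcodes than in the 298 with another heavy V gene, and 8 (0.274%) at least 4-fold lower. Levels are CPM over non-immunoglobulin UMIs, and median depths were 35950 and 32147 UMIs. Barcodes of 1 library are not replicates, so these are descriptions.

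Ly6k, a GPI-anchored protein of the Ly6 family, was the most abundant of them, at 5201 in Ighv1-54 barcodes and 377 in the others. That is 13.8-fold (13.2 to 14.4), and it was found in 98.2% and 37.9% of barcodes. Ly6k was also found in 17.6% of CAR-like barcodes, and each other gene higher in Ighv1-54 barcodes in at most 3.08%. Any part of free RNA in the Ly6k levels was not tested. Lsamp, a neural cell adhesion protein, stood at 286 and 12.4, and was found in 34.9% and 8.05%. Dcaf8l, Tmed6, 3830403N18Rik, Lrp1b, Ctxnd1 and Wdr49 were 4.66-fold to 15.6-fold higher. Both plasma cell-like clusters showed this for Ly6k (5085 against 367 and 7409 against 676), whereas Lsamp was 301 against 12.6 in the larger but 6.71 against 5.41 in the smaller. Wdr49 had the opposite order in the smaller cluster, at 29.1 against 59.5. Only 30 barcodes of the smaller cluster carried another heavy V gene.

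The genes lower in Ighv1-54 barcodes included Srgn, a secretory granule proteoglycan, at 35.8 against 481 and found in 16.4% against 73.5% of barcodes. Cd28, a costimulatory receptor that plasma cells can use, was at 24.1 against 115. The others were uneven for Cd28, at 233 in Ighv14-1 barcodes and 47.4 with any other heavy V gene. In the smaller cluster Cd28 stood at 14.5 against 21.6. Sfn was at 12.2 against 94.5, with 29.7 in Ighv14-1 barcodes and 132 with any other heavy V gene. Prg2, a granule protein, was at 22.6 against 91.1. Abtb2, Hspb1 and Csn3 were 4.06-fold to 6.02-fold higher in the others. However, Abtb2 had the opposite order in the smaller cluster (11.2 against 0), and Csn3 was found in only 9.40% of the others. Abtb2, Srgn and Hspb1 were also found in 24.4%, 23.8% and 23.6% of CAR-like barcodes. Each other gene lower in Ighv1-54 barcodes was found in at most 0.510% of CAR-like barcodes. Any part of stromal RNA in these levels was not tested. Il1rapl2 was 10.5-fold higher there in pooled UMIs, at 427 in Ighv14-1 barcodes and 2.16 in the 201 barcodes with neither gene. It was found in only 6.38% of the others, against 7.56% of Ighv1-54 barcodes, and in the smaller cluster stood at 0 against 1.12. Hspb1 showed the same order, at 358 in Ighv14-1 barcodes and 52.0 with neither. Ighv1-54 was called in 373 of all 383 barcodes (97.4%) of 1 of the finer clusters and in 57.8% and 71.2% of all barcodes of the others. The leading genes of the cluster at 97.4% included Dcaf8l, Lsamp, Ly6k, Wdr49, Tmed6 and Lrp1b, all higher in Ighv1-54 barcodes. Ctxnd1 was a leading gene of the cluster at 57.8%. Whether these genes differ with the heavy V gene within a finer cluster was not tested.

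**Figure D4:**
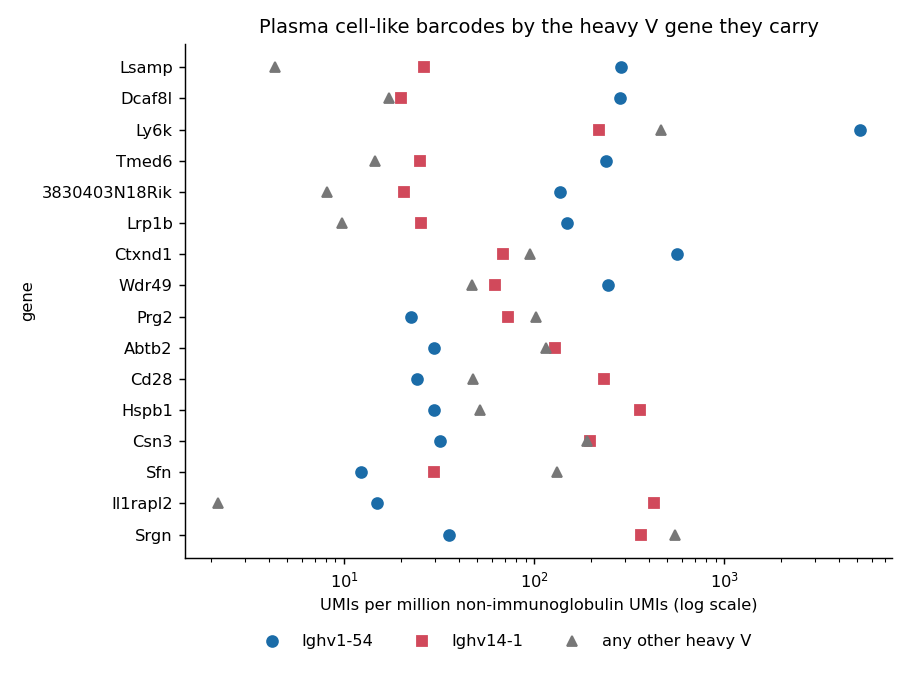
Level, as CPM over non-immunoglobulin UMIs on a log axis, of the 16 genes that differed at least 4-fold, pooled over old plasma cell-like barcodes that carry Ighv1-54, Ighv14-1 or any other heavy V gene. Ly6k stands at 5201, 220.4 and 467, and Srgn at 35.8, 364 and 548.

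B lineage cells were too few to describe a repertoire. No B lineage cluster formed, and barcodes of the neutrophil-like cluster with at least 4 of 12 B lineage markers were taken instead, a limit set after the values were seen. This gave 19 adult and 14 old barcodes. Since the markers chose these barcodes, their detection (Pax5 in 84.2% and 92.9%) is no check of the label. The adult ones held 19 V UMIs over 12 genes in 7 barcodes, with at most 4 in a barcode, and only 2 were of heavy V genes. The old ones held 461, but 446 of them lay in 1 barcode that carried the top pair and UMIs of 9 of 10 plasma cell markers. No adult barcode reached the 10 UMIs needed for a diversity value.

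V RNA was also found at low levels throughout the stroma of the old library. Old CAR-like barcodes had a mean of 0.666 V UMIs (0.652 to 0.679), and 46.3% of the 14305 had at least 1, against 4 UMIs in 14160 adult CAR-like barcodes. Old osteolineage-like barcodes had 0.691 (0.633 to 0.753) and endothelial-like 0.588 (0.515 to 0.668), with at most 5 and 4 UMIs in a barcode. Median depths were 7258, 11547 and 4299 UMIs. In CPM over non-immunoglobulin UMIs, the 3 classes stood at 84.0, 50.9 and 102, against 17653 in plasma cell-like barcodes, in the reverse order of their depths.

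The V genes found in stroma were those of the plasma cell-like barcodes in nearly the same shares. Igkv12-44, Ighv1-54 and Iglv1 made up 84.4% of the 9523 V UMIs of CAR-like barcodes and 85.1% of those of plasma cell-like barcodes. They made up 83.9% in osteolineage-like and 88.5% in endothelial-like barcodes. Across the 103 V genes with at least 10 UMIs in plasma cell-like barcodes, log10(UMIs + 1) in the 2 classes had Pearson's r of 0.920 and Spearman's rho of 0.870. That is a description across genes, which share 1 library and are not replicates.

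The shares were not identical, however. Igkv12-44 had 1.11 times (1.08 to 1.15) and Ighv1-54 0.831 times (0.796 to 0.867) its plasma cell share in CAR-like barcodes. Among V genes with at least 100 UMIs in plasma cell-like barcodes, Igkv9-120 had the highest relative share, 6.34 times (3.76 to 10.2) from 20 CAR-like UMIs, followed by Igkv17-127 at 3.23 times (2.41 to 4.26) from 54. Ighv8-12, Igkv6-23 and Igkv8-30 had 2.53, 2.41 and 2.34 times. The 5 lowest, Igkv6-17, Ighv1-53, Ighv6-3, Ighv1-19 and Ighv10-3, had 1 or 0 CAR-like UMIs each. Leaving out the 1% of CAR-like barcodes with the most V UMIs left 19 UMIs of Igkv9-120 and 52 of Igkv17-127, so these 2 shares did not come from a few barcodes.

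**Figure D5:**
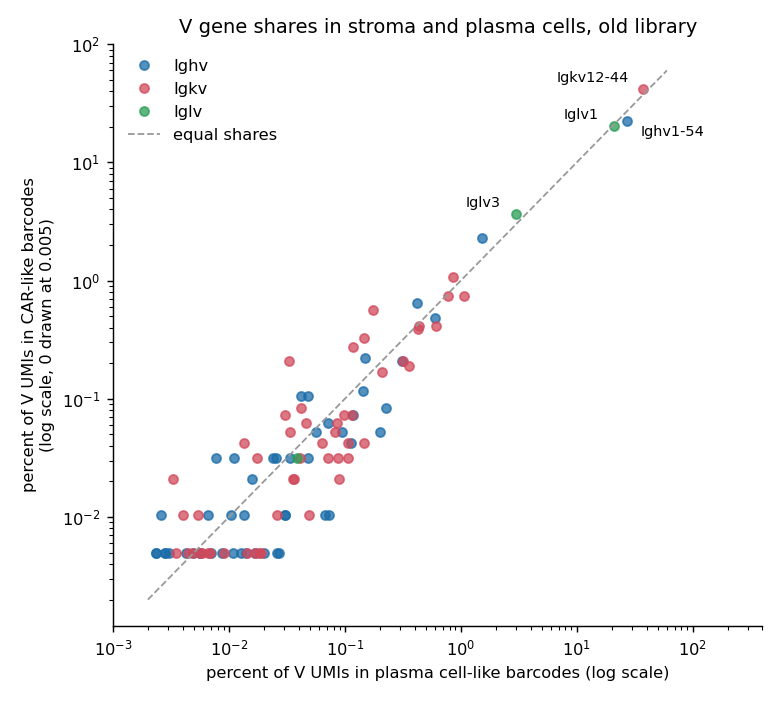
Percent of all V UMIs taken by each of the 103 V genes with at least 10 UMIs in plasma cell-like barcodes (x) and in CAR-like barcodes (y) of the old library, on log axes with 0 drawn at 0.005; the dashed line marks equal shares. Igkv12-44, Ighv1-54 and Iglv1 lie near the line at the upper right, and the spread widens where CAR-like barcodes hold 1 or 0 UMIs of a gene.

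Erythroid-like barcodes had a higher mean, which rested on a few barcodes. The 1090 old erythroid-like barcodes had a mean of 4.45 V UMIs (4.32 to 4.57) at a median depth of 35665 UMIs, and 18 of them, with at least 10 V UMIs each, held 76.4% of those UMIs. These 18 had UMIs of a median of 8 of 10 plasma cell markers, against 2 in the rest, and a median of 77819 UMIs. In the rest the mean was 1.07, or 26.7 CPM over non-immunoglobulin UMIs, below the 81.8 of CAR-like barcodes without such barcodes. The 338 adult erythroid-like barcodes held 0 V UMIs, which allows up to 3 in all.

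The V calls in those erythroid-like barcodes were as uniform as in plasma cell-like barcodes. In 15 erythroid-like barcodes with at least 10 heavy V UMIs, the top gene held a median of 100% of them. Of 12 barcodes with both a heavy and a kappa call, 9 had Ighv1-54 with Igkv12-44, and 1 each had Ighv14-1 with Igkv4-59, Ighv1-81 with Igkv5-48 and Ighv6-6 with Igkv10-96. All 4 are pairs that were also found in at least 5 plasma cell-like barcodes. Only 10 of 14305 CAR-like barcodes held 10 or more V UMIs, and in osteolineage-like and endothelial-like barcodes the number was 0. Whether such barcodes are droplets with more than 1 cell was not tested.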

How the data were processed

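The data are gene-by-barcode tables of UMI counts, deposited by the authors for 1 adult and 1 old library, and made with Cell Ranger 7.0.1 per the file headers. The genome build was GRCm39 per the submitters' processing notes. No coordinates are printed, because the annotation used for names and sequences is of GRCm38. UMI counts were summed over all deposited barcodes for library totals. For cell classes, barcodes with at least 500 genes and at most 10% mitochondrial UMIs were kept, scaled to 10000 UMIs and clustered jointly without immunoglobulin genes (2000 variable genes, 50 principal components, 15 neighbours, Leiden resolution 1), with scanpy 1.11.5 and leidenalg 0.10.2 in Python 3.11.15. Clusters were named by marker lists. Calls and folds were computed with numpy 2.4.6 and scipy 1.17.1 and tested on simulated data. No doublet caller was run. The members and gene lists were chosen with earlier results of these data known. Named genes are the 10 heavy, 10 kappa and 3 lambda V genes with the most UMIs in the old library, the top 5 of the adult library, those of the 10 most frequent pairs, the runner-up of each chain in the top pair, and the 5 highest and 5 lowest by share in stroma. Other V genes, and the genes that differ with the heavy V call, were chosen after their values were seen. Some genes of the lists are not reported here.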

Additional observations from a re-analysis of the deposited data

How the results depend on the processing

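Of 67 alternatives over 20 results, 46 stayed within counting error or within 1.5 times of the value reported and 21 did not; no direction reversed. The V level of the old library was 1993 CPM over filtered barcodes and 2140 CPM over non-immunoglobulin UMIs. V genes detected numbered 64 in the old library at 100 UMIs, and 3 in the adult library at 3 UMIs against 0 at 10. The plasma cell-like mean of 336 V UMIs was 314 with immunoglobulin genes kept in the clustering and 326 without the 1% of barcodes with the most V UMIs. That omission gave 0.614 in CAR-like and 1.39 in erythroid-like barcodes, whose mean was 4.62 at Leiden resolution 2 and 5.13 with immunoglobulin genes kept. Only 5 of 14305 old CAR-like barcodes had at least 10 light V UMIs. Light V genes in 10 UMIs numbered 2.77 in these, and 1.63 with at least 30 UMIs required, so both values rest on very few barcodes. At 80% for both calls, 323 barcodes were paired, with 25 pairs and 84.5% in the top pair; that share was 74.6% at 30 UMIs and 75.2% with kappa genes alone. The smaller plasma cell-like cluster alone, an alternative added later, gave 167 barcodes, 15 pairs and 73.7%. No paired analysis was possible because each age has 1 library. Without the 2 barcodes with more lambda constant than Igkc UMIs, lambda V over constant UMIs moved from 118% to 184%. Counting intervals leave out variation between mice.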
